A study of Mus musculus with 8 samples.

Results

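The microRNAs miR-7a-5p and miR-7b-5p were examined in small RNA sequencing libraries of mouse liver and liver mitochondria. They were taken by name from the deposited tables, which list 862 miRNA names over 8 libraries, and both names were listed in all 8. The pair was chosen by name with results of these data known. It is taken as selected on the lower RPM of miR-7a-5p in the mitochondria of calorie-restricted mice, so the diet values in mitochondria are given as a description with no test. The groups were all from wild-type male C57BL/6J mice that were 8 weeks old at the start and stayed on their diet for 12 weeks. CR mitochondria (3 libraries) came from mice under caloric restriction (CR), by 20% in the first week and by 40% in the 11 weeks after it, and AL mitochondria (3 libraries) from mice fed ad libitum (AL). These RNAs were extracted from mitoplasts, prepared from mitochondria purified by differential centrifugation. The CR whole-liver pool and the AL whole-liver pool were 1 library each, made from 3 RNA samples in equal amounts. Whether each mitochondrial library came from its own mouse is not stated in the labels, so the tests measure the spread between these libraries, which may be technical.

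miRNAs are short RNAs that guide Argonaute proteins to messenger RNAs, mainly through the seed, bases 2 to 8 from the 5′ end. miR-7 is an old and strongly conserved family, best known from neuroendocrine tissue such as pancreatic islets, pituitary and brain. Its described partners include the circular RNA Cdr1as, which carries many miR-7 sites, and the long non-coding RNA Cyrano, whose extended pairing leads to miR-7 decay. Described targets include the growth factor receptor EGFR, the insulin signalling adaptors IRS1 and IRS2 and, in human cells, the outer mitochondrial membrane channel VDAC1. In human liver cancer cells miR-7 was described to act on PIK3CD, a catalytic subunit of PI3 kinase.

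The sequences show which reads can be told apart. The mature forms, from RefSeq (GRCm38.p6), are written 5′ to 3′ with the seed in capitals.
miR-7a-5p: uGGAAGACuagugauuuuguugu
miR-7b-5p: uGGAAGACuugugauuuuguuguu
miR-7a-1-3p: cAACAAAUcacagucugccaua
miR-7a-2-3p: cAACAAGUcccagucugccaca
miR-7b-3p: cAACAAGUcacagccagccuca
The 5p names have the same seed and differ by A10U, counted from 1 at the 5′ end. In the deposited tables miR-7b-5p is given 1 base shorter at its 3′ end, so there both names are 23 bases long. No other of the 862 deposited names, and no other of 1679 mature mouse names in the RefSeq table, has this seed. The pair is therefore the whole seed family in these libraries.

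The hairpins Mir7-1, Mir7-2 and Mir7b give rise to these arms, shown with the mature arms in capitals because they decide what can be read from the tables.
Mir7-1: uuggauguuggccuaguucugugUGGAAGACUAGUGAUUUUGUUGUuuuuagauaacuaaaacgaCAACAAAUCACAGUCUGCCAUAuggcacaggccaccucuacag
Mir7-2: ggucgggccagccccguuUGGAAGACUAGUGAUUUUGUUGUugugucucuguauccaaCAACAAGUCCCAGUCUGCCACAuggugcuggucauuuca
Mir7b: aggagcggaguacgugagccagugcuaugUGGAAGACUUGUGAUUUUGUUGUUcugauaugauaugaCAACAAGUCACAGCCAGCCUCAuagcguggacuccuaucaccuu
Mir7-1 lies at chr13:58392779-58392886 on the minus strand (GRCm38), inside an intron of Hnrnpk, which encodes an RNA-binding protein. All 12 annotated Hnrnpk transcripts over the hairpin span it with 0 exons on it (GENCODE M21). Mir7-2 lies at chr7:78888277-78888373 and Mir7b at chr17:56242988-56243098, both on the plus strand with no other annotated gene over them. miR-7a-5p is identical from Mir7-1 and Mir7-2, so a read of it has no known hairpin of origin. The 3p arms can be told apart, since miR-7a-1-3p and miR-7a-2-3p differ by A7G, A10C and U21C. These positions come from the reference and not from the authors' mm9 alignment.

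The libraries held 1070762 to 1577691 miRNA reads in mitochondria and 2431564 to 3242002 in the pools. Levels are in RPM, reads per 1000000 reads on the listed miRNAs, with 1 read worth 0.308 to 0.934 RPM. RPM is a share of the library, and in bulk liver fewer cells of a type and less RNA per cell cannot be told apart. Hepatocyte miRNAs marked every library as liver: miR-122-5p, miR-192-5p, miR-194-5p and miR-148a-3p together took 50.8% to 70.2% of reads in CR mitochondria, 56.3% to 60.7% in AL mitochondria, 55.2% in the CR pool and 46.3% in the AL pool. Intervals and floors cover counting error only.

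miR-7a-5p was an abundant liver miRNA and was lowest in CR mitochondria. It stood at 1249.8, 555 and 1061 RPM in CR mitochondria (replicates 1, 2 and 3), against 1985, 2155 and 2271 RPM in AL mitochondria. The whole-liver pools held more of it, 4426 RPM in the CR pool and 3890.5 RPM in the AL pool. The order of the groups was thus CR mitochondria, AL mitochondria, AL pool and CR pool from low to high, and no library of one mitochondrial group overlapped with the other. In reads these levels rest on 1501, 875 and 1136 in CR mitochondria, 2150, 2360 and 3231 in AL mitochondria, 14349 in the CR pool and 9460 in the AL pool. Ranked within its library, miR-7a-5p was the 34th, 49th and 34th most abundant name in CR mitochondria, the 33rd, 29th and 28th in AL mitochondria, and the 25th in both pools.

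**Figure D1:**
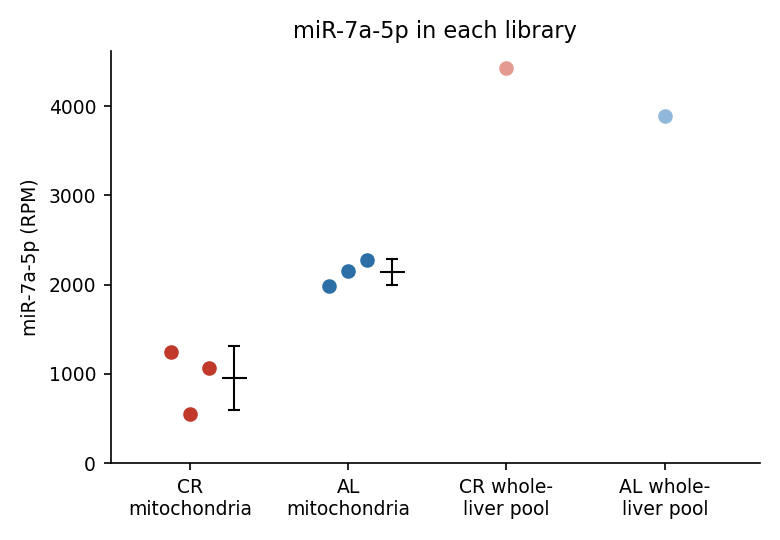
miR-7a-5p in RPM (linear axis from 0) by group, with 1 point per library and the mean ± SD (n = 3) beside each mitochondrial group. The CR mitochondrial libraries sit between 555 and 1249.8 RPM, below all AL mitochondrial libraries, and both pools sit above every mitochondrial library.

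The first question is how miR-7a-5p differs between the diets in mitochondria. It averaged 955 ± 359.5 RPM in CR mitochondria and 2137 ± 144 RPM in AL mitochondria (SD, n = 3 each), a 2.24-fold lower mean under CR. The AL libraries lay close together (coefficient of variation 6.75%), whereas the CR libraries spread more widely (37.6%), with replicate 2 lowest. The log2 fold change fitted on log2(RPM + 1) was -1.24 (SE 0.35), where the median of all 417 tested names was -0.17, and 16 names had a more negative value. Non-overlapping groups with CR lower were found for 13.9% of the tested names, in either direction for 18.9%, and miR-7a-5p was 1 of the 58 names in the first share. By limma-trend with Benjamini-Hochberg adjustment, 2 of the 417 names passed 0.05 (0.48%) and 53 stood at an unadjusted p under 0.05, which is given as the background of the comparison and read for neither miR-7 name. Leaving out AL replicate 1 gave 5 calls, leaving out CR replicate 3 gave 1, and leaving out any of the other mitochondrial libraries gave 0.

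CR replicate 2, the library with the lowest miR-7a-5p, also stood apart in other markers. Of the 4 pancreas markers, miR-375-3p had 100 reads there (63.4 RPM) and miR-217-5p 52 reads (33.0 RPM). miR-216a-5p and miR-216b-5p were not raised there, at 2 reads each (1.27 RPM). In AL mitochondria they reached 1.83 and 1.85 RPM. The 4 markers summed to 98.9 RPM in that library, to 2.50 and 4.67 RPM in the other CR mitochondria, to 2.11 to 5.48 RPM in AL mitochondria, and to 2.16 RPM in the CR pool and 6.17 RPM in the AL pool. The hepatocyte markers took 50.8% of its reads, against 68.3% and 70.2% in the other CR mitochondria. Of these markers only miR-122-5p was lower there, at 25.2% against 53.2% and 58.1% of reads. miR-148a-3p (17.6% against 10.2% and 8.53%), miR-192-5p (6.19% against 3.17% and 2.49%) and miR-194-5p (1.75% against 1.68% and 1.14%) were higher there. Of the 8 neuronal markers, miR-124-3p and miR-153-3p were at 0 in every library, and the list summed to 45.6 to 64.1 RPM in CR mitochondria, 53.0 to 63.7 RPM in AL mitochondria, 97.2 RPM in the CR pool and 75.3 RPM in the AL pool. Leukocyte markers (4 of 4 listed in each library) summed to 193 to 256 RPM in CR mitochondria, 259 to 416 RPM in AL mitochondria, 310.3 RPM in the CR pool and 385 RPM in the AL pool, and erythroid markers (3 of 3) to 45.6 to 75.8 RPM in CR mitochondria, 41.5 to 63.9 RPM in AL mitochondria, 73.1 RPM in the CR pool and 40.7 RPM in the AL pool. Among the leukocyte markers miR-150-5p was highest in CR replicate 2, at 116 reads (73.5 RPM). It stood at 20.0 and 25.2 RPM in the other CR mitochondria, 12.7 to 18.5 RPM in AL mitochondria and 46.1 RPM in the AL pool. The other leukocyte markers in CR replicate 2 lay within the range of the other mitochondrial libraries. The part of these other RNAs in the miR-7a-5p values was not tested. Without CR replicate 2 the log2 fold change was -0.89, and the remaining CR libraries (1249.8 and 1061 RPM) still lay below all AL libraries.

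In whole liver miR-7a-5p went the other way by a small margin. The CR pool held 4426 RPM and the AL pool 3890.5 RPM, a ratio of 1.14 (exact 95% Clopper-Pearson interval 1.11 to 1.17, from reads). With 1 pool per diet the ratio compares those libraries and has no replicate check. Among the 243 names with at least 10 RPM in a pool the median log2 ratio, with 1 RPM added, was -0.22, and 59 names had a higher ratio than the 0.19 of miR-7a-5p. At least 2-fold differences between the pools were found for 11.1% of these names, and miR-7a-5p was not one of them. The combination of CR below AL in all mitochondrial libraries with the CR pool above the AL pool was found for 14 of the 243 names (5.76%), miR-7a-5p included. The other 13 were let-7b-5p, let-7c-5p, miR-10a-3p, miR-143-5p, miR-145a-3p, miR-148b-3p, miR-151-5p, miR-152-3p, miR-1843a-5p, miR-1843b-5p, miR-185-5p, miR-328-3p and miR-423-5p, named after their values were seen.

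**Figure D2:**
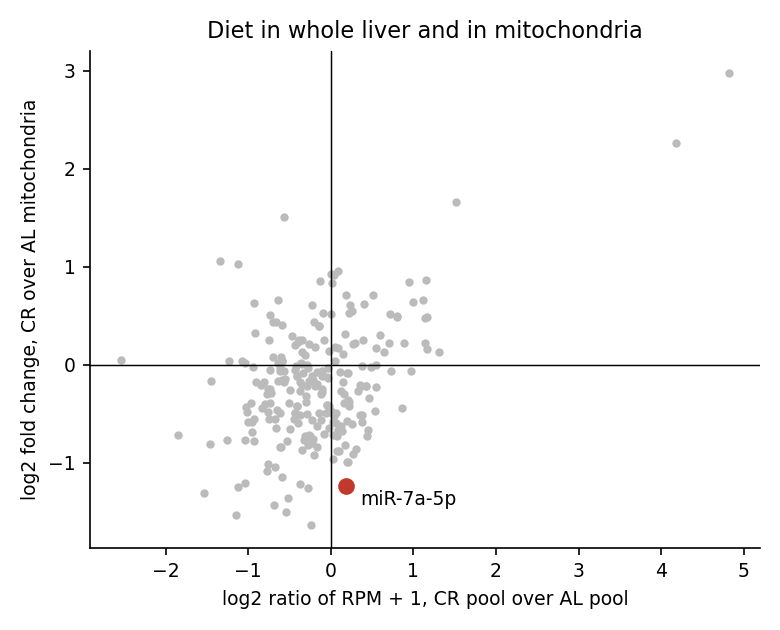
Each point is 1 of 243 names, with the log2 ratio of RPM + 1 of the CR pool over the AL pool on the x axis and the fitted log2 fold change of CR over AL mitochondria on the y axis. miR-7a-5p (red) sits right of 0 on the x axis (0.19) and below 0 on the y axis (-1.24).

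The next question is how mitochondrial levels stand against whole liver. miR-7a-5p was lower in mitochondria in both diets. Set against the pool of the same diet, it reached 28.2%, 12.5% and 24.0% of the pool's RPM in the CR mitochondrial libraries and 51.0%, 55.4% and 58.4% in the AL mitochondrial libraries. All 6 mitochondrial libraries lay below both pools, as for 27.1% of the 417 tested names.

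In a fit over the 8 libraries that also held a diet term, the log2 fold change of miR-7a-5p in mitochondria against whole liver was -1.58 (SE 0.37, limma-trend adjusted p = 0.00302), a 2.99-fold lower level, or -1.27 relative to the median of all names (-0.31). Of the tested names 134 passed (32.1%), 90 of them lower (21.6%) and 44 higher in mitochondria, and miR-7a-5p was 1 of the 90. With TMM factors 67 were lower and 75 higher, with DESeq2 size factors 72 and 62, and miR-7a-5p stayed below 0 under both, at -1.15 (adjusted p = 0.0251) and -1.27 (0.0139). The fit assumes that the pools vary like the mitochondrial libraries, and the low CR mitochondrial values on which the pair was chosen enter it. Within AL alone the log2 fold change was -0.87 (adjusted p = 0.156, 3 libraries against 1) and within CR alone -2.29 (adjusted p = 0.0821), so neither diet passed by itself.

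**Figure D3:**
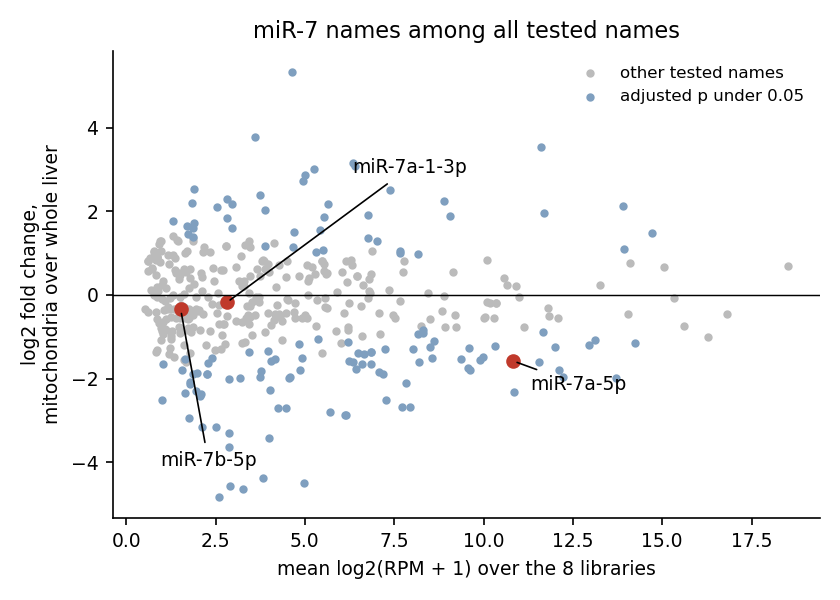
Fitted log2 fold change of mitochondria over whole liver (y axis) against the mean log2(RPM + 1) of the 8 libraries (x axis) for 417 tested names, with names at an adjusted p under 0.05 in blue and the miR-7 names in red. miR-7a-5p lies at -1.58 among abundant names, and miR-7b-5p and miR-7a-1-3p lie near 0 among names of few reads.

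miR-7b-5p was close to the limit of detection in every group. It had 1, 2 and 1 reads in CR mitochondria (0.833, 1.27 and 0.934 RPM), 1, 8 and 3 reads in AL mitochondria (0.923, 7.31 and 2.11 RPM), 14 reads in the CR pool (4.32 RPM) and 3 reads in the AL pool (1.23 RPM). It was at or under 3 reads, the floor used here for a level of 0, in 6 of 8 libraries, and the mitochondrial groups overlapped. No fold between the diets in mitochondria is given at this depth. The ratio of the CR pool to the AL pool was 3.50, with an exact 95% interval of 0.977 to 19.0. In the fit of mitochondria against whole liver its log2 fold change was -0.35 (SE 0.63, adjusted p = 0.679), and a difference was not detectable at this depth.

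The 5p names were thus very unequal. miR-7b-5p made up 33 of the 35095 reads of the pair over the 8 libraries, a share of 0.0940% (exact 95% Clopper-Pearson interval 0.0647% to 0.132%). The share was 0.0666%, 0.228% and 0.0880% in CR mitochondria, 0.0465%, 0.338% and 0.0928% in AL mitochondria, 0.0975% in the CR pool and 0.0317% in the AL pool. The exact intervals of all pairs of libraries overlapped except those of AL replicate 2 (0.146% to 0.665%) and the AL pool (0.00654% to 0.0926%). Among 15 pairs of names in the tables that differ by 1 base and whose more abundant name averages at least 1000 RPM, the share of the rarer name was 0.0162% to 46.9%, and that of miR-7b-5p was the second lowest. The lowest was miR-378d beside miR-378a-3p, and the next after miR-7b-5p was miR-10b-5p beside miR-10a-5p at 1.79%. How the authors assigned reads with a mismatch is not given in the sources used here, and the part of misread miR-7a-5p in the miR-7b-5p reads was not tested. Summing both names moved the fitted values of miR-7a-5p by less than 0.01.

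**Figure D4:**
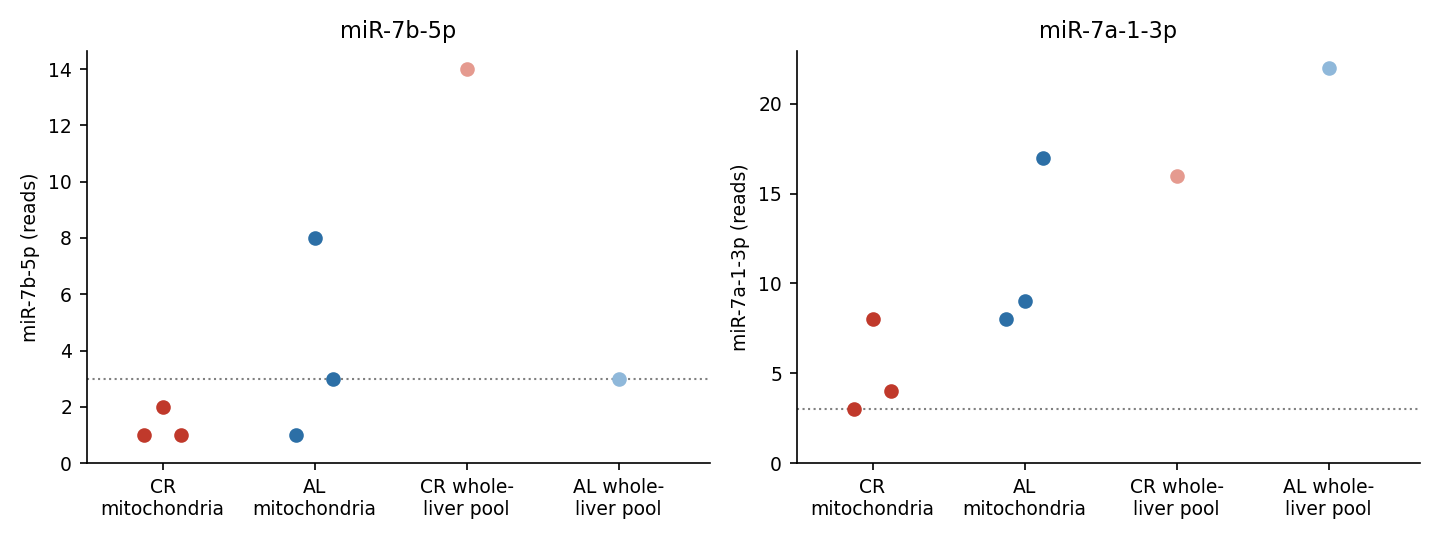
Reads per library (linear axes from 0, not scaled to library size) of miR-7b-5p on the left and miR-7a-1-3p on the right, by group, with a dotted line at 3 reads. miR-7b-5p is at or under the line in 6 of 8 libraries, and miR-7a-1-3p lies between 3 and 22 reads.

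The passenger 3p arms can be told apart by hairpin, but their few reads limit what they show. Mir7b left reads of its 5p arm, 33 over the 8 libraries. At a 3p share like the 0.2475% of miR-7a-1-3p beside miR-7a-5p from either hairpin, its 3p arm would not be seen at this depth. miR-7a-1-3p, the 3p arm of the Hnrnpk intron hairpin, was listed in 8 of 8 libraries. Neither miR-7a-2-3p nor miR-7b-3p was listed in any, which allows up to 0.925 RPM in the CR pool and up to 2.80 RPM in the shallowest mitochondrial library (3 reads). miR-7a-1-3p had 3, 8 and 4 reads in CR mitochondria (2.50, 5.07 and 3.74 RPM), against 8, 9 and 17 reads in AL mitochondria (7.38, 8.22 and 12.0 RPM). The CR pool held 16 reads (4.94 RPM) and the AL pool 22 reads (9.05 RPM). As for miR-7a-5p, the CR and AL mitochondrial groups did not overlap in RPM, a pattern found with CR lower for 13.9% of all tested names. The means were 3.77 ± 1.29 RPM in CR and 9.19 ± 2.43 RPM in AL mitochondria (SD, n = 3 each). The log2 fold change, on very few reads, was -1.11 (SE 0.50), and -0.69 with 5 RPM added in place of 1 RPM.

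For miR-7a-1-3p no difference between mitochondria and whole liver was detectable at this depth. The log2 fold change was -0.18 (SE 0.47, adjusted p = 0.781), and the sign turned with other scalings, to 0.18 with TMM factors. The ratio of miR-7a-1-3p in the CR pool to the AL pool was 0.545, with an exact 95% interval of 0.268 to 1.09, so its reads did not separate the pools. Of the reads of miR-7a-1-3p and miR-7a-5p together, miR-7a-1-3p made up 0.200%, 0.906% and 0.351% in CR mitochondria, 0.371%, 0.380% and 0.523% in AL mitochondria, 0.111% in the CR pool (95% interval 0.0637% to 0.181%) and 0.232% in the AL pool (0.146% to 0.351%). Since miR-7a-5p reads may come from Mir7-1 or Mir7-2, these values are not the arm shares of the Mir7-1 hairpin alone. miR-7a-5p, from either hairpin, was thus in large excess throughout, from 109 reads per read of miR-7a-1-3p in CR replicate 2 to 897 in the CR pool.

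Other miRNAs with a described partner RNA that induces decay, as Cyrano does for miR-7, or with described ZSWIM8-dependent decay were read as a group. The list held miR-29b-3p, miR-30b-5p, miR-30c-5p, miR-322-5p, miR-335-3p and miR-503-5p, and all 6 were tested. None of the 6 passed between the diets in mitochondria by limma-trend, beside 0.24% of all names in each direction, with 1 at an unadjusted p under 0.05 and 1 called by DESeq2 (miR-30b-5p). Their median log2 fold change was 0.14, against -0.17 over all 417 names. In mitochondria against whole liver 1 rose, 2 fell and 3 did not pass, beside 10.6% of all names higher and 21.6% lower. Their median was -0.35 against -0.31 over all names. miR-29b-3p, a regulator of collagen genes, averaged 418 RPM in CR and 283 RPM in AL mitochondria, with 219.6 RPM in the CR pool and 134 RPM in the AL pool (log2 fold change 0.98, adjusted p = 0.0269; 0.0657 without AL replicate 3 and 0.0533 without CR replicate 3). miR-30c-5p fell (-1.24, adjusted p = 0.00938; 0.0505 with TMM factors), as did miR-335-3p (-3.64, adjusted p = 8.13e-05), which stood at 3.39 RPM in CR and 3.25 RPM in AL mitochondria, against 30.5 RPM in the CR pool and 72.8 RPM in the AL pool.

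The arms of miR-671 were looked at because miR-671-5p is described to direct cleavage of Cdr1as, the miR-7 binding circular RNA. Both arms were rare, and neither passed between the diets in mitochondria by limma-trend, with 0 at an unadjusted p under 0.05 and 0 called by edgeR or DESeq2. In mitochondria against whole liver miR-671-3p fell by limma-trend (-2.12, adjusted p = 0.0132; 0.0710 with no filter on low values), as did 21.6% of all names. miR-671-5p did not pass (0.35, adjusted p = 0.623). miR-671-3p stood at 2.79 RPM in CR and 0.773 RPM in AL mitochondria, against 5.55 RPM in the CR pool and 15.6 RPM in the AL pool. It had at most 6 reads in a mitochondrial library. Its log2 fold change was -0.92 within CR alone and -3.32 within AL alone.

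The names whose levels followed miR-7a-5p most closely were found over the 8 libraries among 232 names with a mean of at least 10 RPM. Pearson's r of log2 levels was highest for miR-185-5p (0.96), miR-328-3p (0.96), miR-145a-3p (0.92), let-7c-5p (0.91) and miR-351-5p (0.89), against a median of 0.28 over all 232. The points share libraries and their scaling, so r is given as a description with no test. miR-185-5p averaged 307 ± 69.3 RPM in CR and 602 ± 43.5 RPM in AL mitochondria (SD, n = 3 each), with 771 RPM in the CR pool and 671 RPM in the AL pool. Like miR-7a-5p it was lowest in CR replicate 2, and over the 6 mitochondrial libraries alone r was 0.97. miR-328-3p averaged 15.7 ± 6.07 RPM in CR and 28.7 ± 6.37 RPM in AL mitochondria, with 76.2 RPM in the CR pool and 70.7 RPM in the AL pool. For miR-7b-5p, on its few reads, the highest r was 0.72 (miR-1843b-5p), and then 0.65 (miR-425-5p), 0.62 (miR-99b-3p), 0.62 (miR-127-3p) and 0.61 (miR-152-5p).

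**Figure D5:**
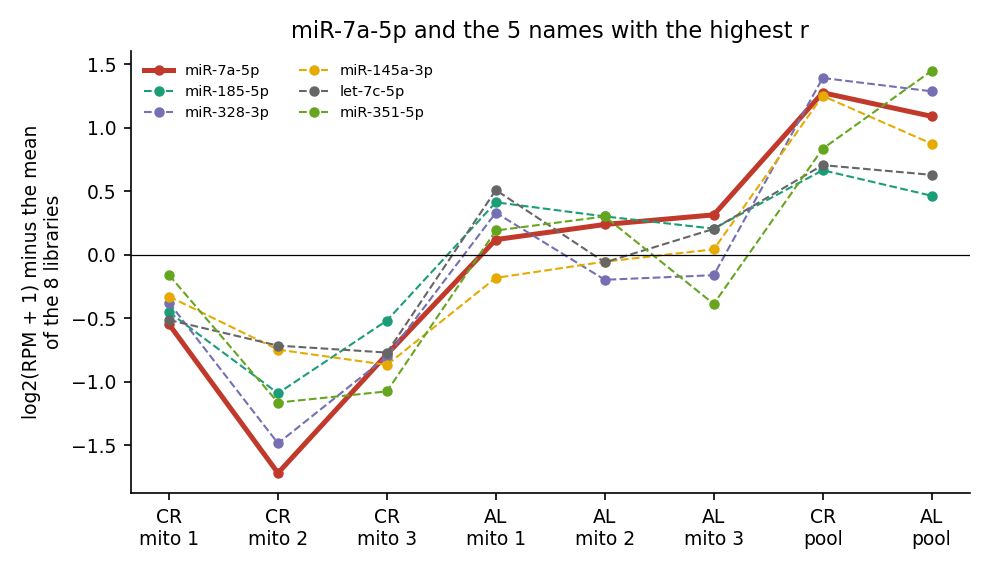
log2(RPM + 1) of miR-7a-5p (thick red line) and of the 5 names with the highest r, each minus its mean over the 8 libraries, by library. All 6 names are below their mean in the 3 CR mitochondrial libraries and above it in both pools.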

How the data were processed

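Small RNA was measured in 8 libraries. The deposited values are RPM, the authors' reads per miRNA scaled to 1000000 reads on all listed miRNAs, although the columns are headed tpm. Mapping used Bowtie and mm9, per the submitters' processing notes; the counting rules are not given in the sources used here. In each library, dividing by the smallest value gave whole reads for 100% of values (within 0.01 read). Names that reached 1 RPM in 3 or more libraries (417) were tested on the log2(RPM + 1) scale with limma-trend (R 4.3.3, limma 3.58.1), and p-values were Benjamini-Hochberg adjusted (called at 0.05). The comparisons were CR against AL over 6 mitochondrial libraries and, with a diet term, mitochondria against whole liver over 8 libraries. On simulated data with 200 of the 417 names changed 4-fold, 79.0% were recovered in the first comparison and 82.5% in the second. Far more names changed there than were called between the diets here, so recovery of smaller or rarer changes is not given by it. edgeR 4.0.16 (quasi-likelihood, TMM) and DESeq2 1.42.0 on recovered reads, other scalings, pseudocounts and filters, and leaving out each mitochondrial library were alternatives. Names not listed in a library entered the fits and means as 0, and 3 reads was the floor quoted for such a level. Plots used Python 3.11.15 and matplotlib 3.10.9. The members, lists and alternatives were chosen with earlier results of these data known. Names given values were the miR-7 arms, the list members that passed, and the 5 names most like each member by Pearson's r; others were named after their values were seen.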

Additional observations from a re-analysis of the deposited data

Results flagged for a closer look

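miR-7a-5p went opposite ways with the diet in the 2 fractions. Its log2 fold change was -1.24 between CR and AL mitochondria, with every CR library below every AL library, as for 13.9% of the 417 tested names. The log2 ratio of the CR pool to the AL pool was 0.19, and 5.76% of the 243 names with at least 10 RPM in a pool showed both this direction and the lower CR mitochondria. The difference between these values was not tested, since the pair was chosen on the mitochondrial values and whole liver has 1 pool per diet.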

How the results depend on the processing

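The miR-7a-5p log2 fold change between CR and AL mitochondria stayed below 0 in all 17 alternatives, at -0.79 with edgeR and between -1.47 and -0.89 when a library was left out. Against whole liver, miR-7a-5p stayed below 0 in all 18 alternatives and past the threshold in 16. The exceptions were AL alone (-0.87) and CR alone (-2.29), against -1.58 in the main fit. All alternatives but AL alone hold low CR mitochondrial values on which the pair was chosen. The alternatives also share libraries, so their number is not independent support. miR-7b-5p turned to 0.72 within AL alone, and miR-7a-1-3p to 0.18 with TMM factors, 0.081 with DESeq2 size factors, 0.17 with miR-122 left out, 0.27 with edgeR and 0.14 with DESeq2; the cause was not tested. Between the diets in mitochondria miR-7a-1-3p stood at -0.69 with a pseudocount of 5 RPM. In the pools the log2 ratio of miR-7a-5p was 0.35 with DESeq2 size factors. The 2 names called between the diets became 10 with no filter, 8 at a mean of at least 10 RPM, 5 with TMM factors, 5 with DESeq2 size factors, 4 with miR-122 left out, 10 with edgeR, 9 with DESeq2, and 0 to 5 with a library left out. The 134 called between fractions became 41 in AL alone and 12 in CR alone. Whether replicate numbers pair the libraries could not be decided from 3 libraries per diet. The correlation of deviations was 0.36, 0.09 and 0.10 for numbers 1, 2 and 3, and AL replicate 2 correlated best with CR replicate 3 (0.20). A replicate block gave 5 calls and left the miR-7a-5p log2 fold change between the diets in mitochondria at -1.24 (SE 0.28 against 0.35). Depth limits miR-7b-5p and miR-7a-1-3p, which rest on 1 to 14 and 3 to 22 reads.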
